A study of Drosophila melanogaster with 17 samples.

Results

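The comparison described here set adult brains of a fly line that carries a UAS-Mdr65-RNAi construct (UAS_control, 3 arrays) against brains of the old set of Canton S wild type (WT_old, 5 arrays), 8 of the 17 arrays of the series. The arrays were assigned to the groups by the submitters' labels, and every probe set of the deposited normalised table was used. UAS_control is a Drosophila melanogaster line with a transgene for RNA interference against Mdr65 behind a yeast UAS element. Such a construct is transcribed when a GAL4 driver is present, and the labels name no driver, so no knockdown was assumed. The series gives the purpose of the line as a control whose genetic background is similar to that of its mutants, C17 (moody null, 3 arrays) and PMdr65 (Mdr65 null, 3 arrays). WT_old was added to control for batch effects, because the newer Canton S set (WT_new, 3 arrays) had been processed on another day than the mutants. The sources used here do not say on which day UAS_control or WT_old was processed, so line, culture and processing cannot be told apart in the difference between them. Each array held RNA of 4 pooled brains from flies of both sexes in proportions that are not given, and neither are ages. All flies were kept at 16 °C or at room temperature.

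The adult fly brain is separated from the haemolymph, the blood of the insect, by 2 sheets of surface glia, the perineurial and the subperineurial layer. The subperineurial cells are sealed by septate junctions, and they carry efflux pumps such as Mdr65, an ABC transporter, that return drugs and toxins to the haemolymph. The G protein-coupled receptor moody controls the tightness of those junctions. Laboratory lines also differ at many loci that have nothing to do with the barrier, among them detoxification genes of the P450 family, and a dissected brain can carry remnants of retina, muscle, fat body and cuticle of the head.

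Values are log2 signals after RMA (robust multi-array averaging), in which signals near 2 to 4 lie at the floor of the arrays, so folds that start or end there are approximate. A gene was called when its adjusted p in a limma fit of all 17 arrays was under 0.05, and it was represented by its brightest probe set. Of 13290 probe sets, 2956 (22.2%) were higher and 4409 (33.2%) lower in UAS_control than in WT_old, 55.4% in all. Of 8938 genes, 2438 (27.3%) were higher and 2442 (27.3%) lower, 54.6% in all, with a median log2 difference of -0.01 over all genes. Most of these differences were small, with a median size of 0.43 log2 among called genes. The large ones ran mostly upwards, as 504 genes were called at least 2-fold higher (5.64%) and 91 at least 2-fold lower (1.02%). At 3 log2 or more, 77 genes were higher and 5 lower. The 3 UAS_control arrays lay above all 5 WT_old arrays in 1988 of the genes called higher (22.2% of all genes) and below them in 1938 of those called lower (21.7%). The labels do not say whether the brains of different arrays were from separate cultures, so p-values measure the spread between arrays, which may be technical.

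Correlations between arrays were 0.974 to 0.987 within UAS_control and 0.991 to 0.996 within WT_old, so UAS_control arrays were less alike than WT_old arrays. Correlations of UAS_control with WT_old arrays ran between 0.923 and 0.963, and those of UAS_control with WT_new arrays between 0.951 and 0.98. The gap between 3′ and 5′ control probe sets, a sign of RNA integrity, was 0.95 to 1.58 log2 for Act5C in UAS_control and 0.76 to 0.96 in WT_old. For GAPDH it was 1.94 to 2.21 in UAS_control and 1.54 to 1.81 in WT_old. For eIF-4a it was 1.8 to 2.34 in UAS_control and 1.55 to 1.95 in WT_old. The Act5C and eIF-4a gaps of UAS_control thus began within the WT_old range, whereas its GAPDH gaps all lay above that range. The Act5C gaps of WT_new were 1.05 to 1.55. The defining markers of brain tissue were bright in both groups, with elav, an RNA-binding protein of neurons, at 11.51 to 11.66 in UAS_control and 11.89 to 11.99 in WT_old.

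Mdr65, the gene at which the construct is directed, was not lower in the line. Its log2 signal was 10.96, 10.61 and 10.77 in UAS_control, against 9.35, 9.72, 9.83, 10.30 and 9.80 in WT_old. All 3 UAS_control arrays lay above all WT_old arrays. The difference was 0.98 log2, or 1.98-fold, with an exact two-sided permutation p of 0.0179 over 56 regroupings, the smallest p that this design can give, and a limma adjusted p of 0.000152. In WT_new Mdr65 averaged 10.23, between the groups. moody, the barrier receptor, had 10.04, 10.10 and 9.94 in UAS_control, against 9.96, 9.79, 10.04, 10.20 and 10.04 in WT_old, so the groups overlapped. Its difference was 0.02 ± 0.09 log2 (SE), with an exact two-sided permutation p of 0.804.

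The sharpest differences were in single genes whose signal was high in one group and at or near the floor in the other, with little spread within either group. What lies behind these differences of signal was not tested. Cyp6a17 (chromosome arm 2R), a cytochrome P450 that affects temperature preference in flies, had 9.28, 9.23 and 9.25 in UAS_control, against 3.35, 3.79, 3.92, 4.00 and 3.78 in WT_old. UAS_control was uniform, and WT_old lay at the floor. That difference of 5.49 log2 (44.8-fold, SE 0.12, adjusted p = 1.75e-13) also held for the mutants, where Cyp6a17 averaged 9.56 in C17 and 9.53 in PMdr65, against 3.41 in WT_new. Zip102B, a zinc transporter gene on chromosome 4, showed the opposite pattern of signal. It had 3.71, 4.17 and 3.97 in UAS_control, against 9.48, 9.18, 9.51, 9.67 and 9.27 in WT_old, a difference of -5.47 log2 (SE 0.13, adjusted p = 4.39e-13). In the mutants Zip102B was at the floor as well, with means of 3.95 in C17 and 3.97 in PMdr65, against 8.86 in WT_new.

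Genes with such shared differences were sought in C17 minus WT_new and PMdr65 minus WT_new. These share no array with UAS_control minus WT_old but share the 3 WT_new arrays with each other. Called higher in all 3 contrasts were 194 genes (2.17% of all), and called lower in all 3 were 131 (1.47%). The genes with the largest smallest difference on the higher side were, after Cyp6a17, Root, Rrp1, CG8745, Ugt49C1, CG4576, CG31955 and Tsp42Eq. Root, the rootletin of sensory cilia, had 8.34, 8.49 and 8.41 in UAS_control, against 5.18, 4.97, 3.74, 4.32 and 4.57 in WT_old. Rrp1, an endonuclease of DNA base excision repair, had 8.13, 7.73 and 7.92 in UAS_control, against 4.40, 4.59, 5.09, 4.08 and 5.33 in WT_old. Neither gene overlapped between the groups, and their differences were 3.86 and 3.23 log2. CG8745, which encodes a predicted aminotransferase, was bright in both groups, with a mean of 11.22 ± 0.12 in UAS_control (SD, n = 3) and 8.17 ± 0.27 in WT_old (SD, n = 5). The other 4 differed by 2.0 to 2.47 log2, and they include Ugt49C1, a UDP-glycosyltransferase, and Tsp42Eq, a tetraspanin of the cell surface. For CG31955 the WT_old arrays spread widely, as array 1 had 6.08 and the median was 4.64.

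On the lower side the same rule named Zip102B, GILT3, CG33093, CG43125, CG32801, CG6656, Archease and CG10005. GILT3, a thiol reductase of the GILT family, averaged 6.05 ± 0.33 in UAS_control (SD, n = 3) and 9.17 ± 0.18 in WT_old (SD, n = 5). Its mutant means were lower than WT_new too, at 8.58 in C17 and 8.21 in PMdr65 against 9.89 in WT_new, yet well above UAS_control. CG33093 sat at the floor in UAS_control (2.96, 2.58 and 2.98) and in both mutants (2.85 in C17 and 2.81 in PMdr65), against 5.01 to 5.39 in WT_old and 5.64 in WT_new. CG43125 was likewise near 3 in UAS_control and both mutants, with a mean of 3.04 in UAS_control and 5.04 in WT_old. The remaining 4 differed by -1.30 to -1.87 log2.

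**Figure D1:**
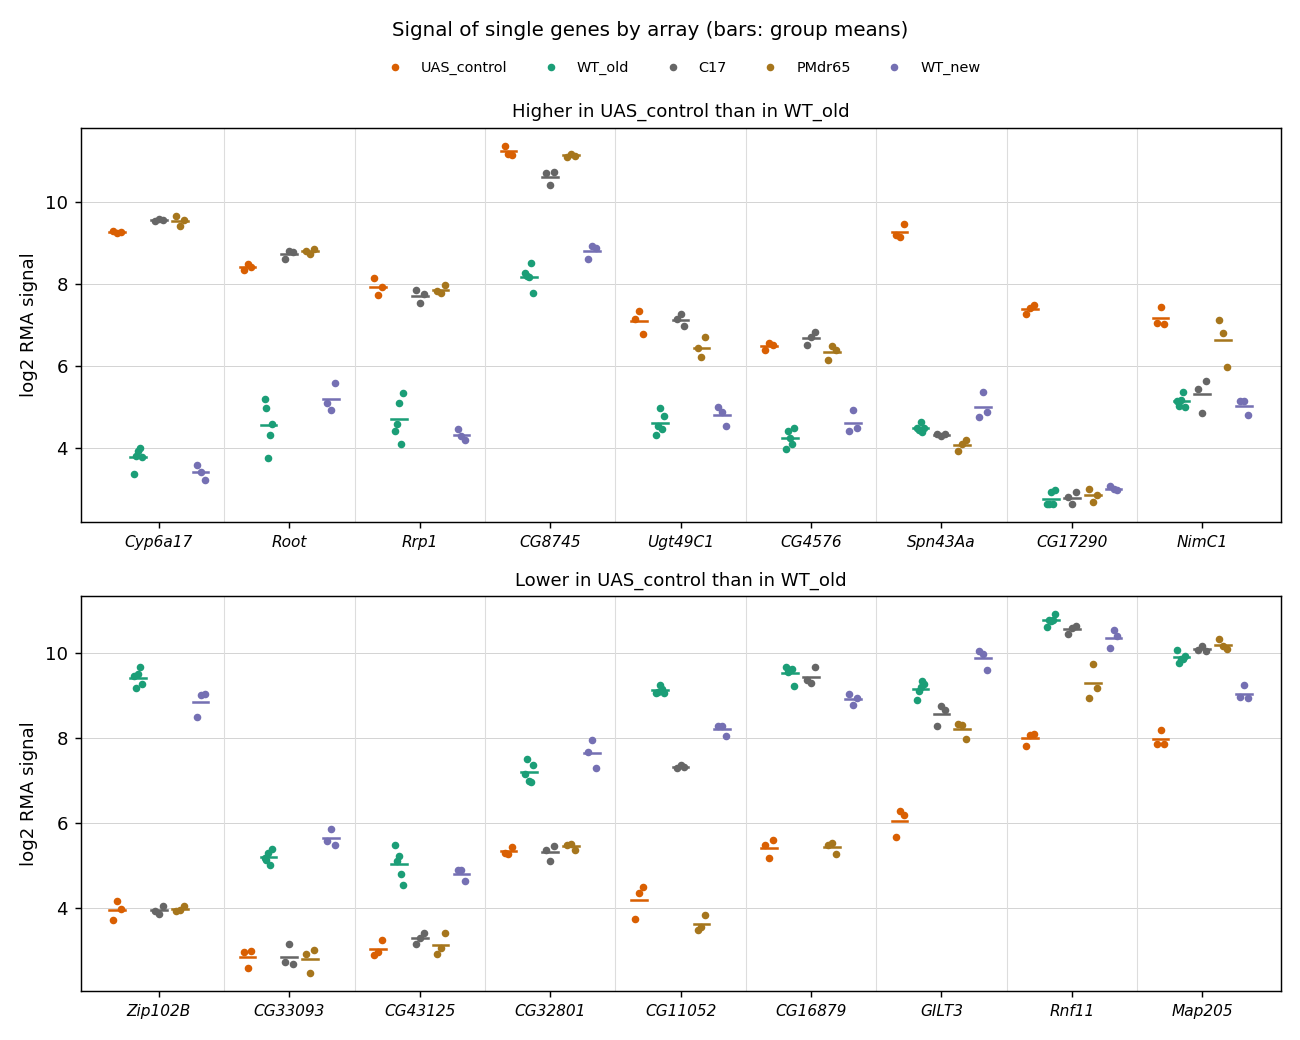
Each point is the log2 RMA signal of 1 array and each short line a group mean, for genes named by the rules on shared and line-specific differences and for NimC1. Cyp6a17 to CG4576 and Zip102B to CG32801 have UAS_control and both mutants on one side and both Canton S sets on the other, whereas Spn43Aa, CG17290, GILT3, Rnf11 and Map205 set UAS_control apart.

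Shared directions were outnumbered by opposite ones over all genes. Of the 2153 genes higher in C17 than in WT_new (24.1% of all genes), 11.8% were also higher and 54.3% were lower in UAS_control than in WT_old, against 27.3% each way over all genes. Of the 1598 genes lower in C17 than in WT_new (17.9%), 55.8% were higher and 11.4% lower in UAS_control. Read from the other side, 10.4% of the genes higher in UAS_control than in WT_old were higher in C17 than in WT_new, and 36.6% were lower there. PMdr65 against WT_new gave 15.9% and 47.5% for its 2112 higher genes (23.6%) and 49.7% and 14.2% for its 1751 lower genes (19.6%). Across the 8938 genes, which are not independent replicates, the differences of UAS_control minus WT_old correlated with those of C17 minus WT_new at r = -0.36 and with those of PMdr65 minus WT_new at r = -0.28. All 17 arrays stand in 1 deposited RMA table. Among genes called in both comparisons with C17, opposite directions (1170 and 892 genes) outnumbered shared ones (253 and 182).

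A further set of genes set UAS_control apart from all other groups. Called one way against WT_old, WT_new, C17 and PMdr65 alike were 244 higher genes (2.73%) and 156 lower genes (1.75%). These 4 contrasts share the UAS_control arrays, so they are not independent, and without UAS_control array 2 the higher count was 159. Spn43Aa (2R), a serpin that inhibits serine proteases, had 9.19, 9.13 and 9.46 in UAS_control, against 4.48, 4.43, 4.64, 4.38 and 4.47 in WT_old. CG17290 (2R) had 7.26, 7.40 and 7.48 in UAS_control, against 2.64, 2.62, 2.93, 2.62 and 2.98 in WT_old. Both genes were uniform within each group, and their differences were 4.78 log2 (27.5-fold) and 4.62 log2 (24.6-fold), with adjusted p of 4.39e-13 and 1.75e-13. In the other groups Spn43Aa averaged 4.08 to 4.99 and CG17290 2.78 to 3.0. The remaining 6 genes that the rule named on the higher side were CG7214, CG7203, TotC, CG9297, CG10560 and Akh, whose UAS_control arrays spread more widely. CG9297 had 8.22, 10.12 and 7.14 in UAS_control and 3.78 to 4.66 in WT_old, and CG10560 had 6.53, 8.83 and 7.92 in UAS_control and 3.14 to 3.65 in WT_old.

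Rnf11, a RING finger ubiquitin ligase gene on chromosome 4, had 7.83, 8.07 and 8.10 in UAS_control, against 10.62, 10.80, 10.76, 10.79 and 10.92 in WT_old. A different probe set of Rnf11 gave a difference of -3.49 log2, beside -2.77 for the brighter one. Map205, a microtubule-associated protein, averaged 7.98 ± 0.19 in UAS_control (SD, n = 3) and 9.91 ± 0.11 in WT_old (SD, n = 5), with 9.06 to 10.21 in the remaining groups. CG33483 was near the floor in UAS_control, with 2.92, 2.63 and 3.77, against 6.67, 6.29, 6.36, 6.05 and 6.42 in WT_old. Also named by this rule on the lower side were GILT3, CG6602, CG15548, Gpo3 and sr, whose differences ran between -0.96 and -3.12 log2. sr, a zinc finger factor that neuronal activity induces, was 8.33 ± 0.12 in UAS_control (SD, n = 3) and 9.29 ± 0.49 in WT_old (SD, n = 5).

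For some of the genes with the largest losses, PMdr65 lay near UAS_control and C17 nearer to the wild types. CG11052 had 3.74, 4.36 and 4.49 in UAS_control, against 9.08, 9.10, 9.25, 9.16 and 9.06 in WT_old, and it averaged 3.62 in PMdr65, 7.33 in C17 and 8.22 in WT_new. CG16879 had 5.49, 5.18 and 5.60 in UAS_control, against 9.68, 9.57, 9.62, 9.64 and 9.24 in WT_old, with 5.43 in PMdr65 and 9.46 in C17. CG31174 and CG15923 differed by -2.60 and -2.68 log2, with PMdr65 means of 4.11 and 5.27 and C17 means of 5.63 and 7.40. c(2)M, a component of the meiotic synaptonemal complex, was 3.96 ± 0.20 in UAS_control (SD, n = 3) and 6.84 ± 0.14 in WT_old (SD, n = 5). CG43074 and CG7742 completed the 15 largest losses with differences of -2.02 and -1.97 log2, next to Hsp68 and Hsp26 below.

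By position, the small chromosome 4 stood out in the share of genes lower. Of its 64 genes, 30 (46.9%) were lower and 11 (17.2%) higher in UAS_control, and 7 differed at least 2-fold. The larger arms had 24.9% to 30.9% of their genes higher and 25.1% to 29.8% lower. Neighbouring genes are not independent, and no test was made of this difference.

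The genes with the largest rises were of another kind, since their level varied widely between UAS_control arrays. CG7214 had 8.39, 10.92 and 9.44 in UAS_control, against 3.04, 2.89, 2.74, 3.18 and 3.02 in WT_old, a difference of 6.61 log2 (97.7-fold, SE 0.60, adjusted p = 8.14e-07). CG7203, CG4000 and Nplp3 rose by 5.93 to 6.07 log2. Nplp3, a neuropeptide-like precursor, had 9.93, 11.82 and 10.99 in UAS_control, against 4.60, 5.45, 4.28, 6.08 and 4.48 in WT_old. In 67 of the 77 genes at least 3 log2 higher, UAS_control array 2 was the highest of the 3, and the median range of the 3 arrays was 2.24 log2 in these genes, against 0.27 over all genes. In 59 of the 77, all WT_new arrays also lay above all WT_old arrays. WT_new array 3 was high as well, with 8.83 for CG7214 against 5.90 and 5.54 in the other WT_new arrays.

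Several of these genes are markers of tissues that surround the brain. Of 20 muscle genes measured, 17 were higher and 0 lower in UAS_control, with a median difference of 2.22 log2 (27.3% of all genes were called higher). Mlc2, a myosin light chain, had 7.67, 10.35 and 6.23 in UAS_control, against 3.30, 3.23, 4.00, 3.04 and 2.88 in WT_old. All 3 arrays were above WT_old, and array 2 was far above the others. The summed linear signal of the muscle list was 4515, 19174 and 3867 in UAS_control, against 1658 to 2119 in WT_old and 2455 to 3744 in WT_new. Act79B and Act87E, actins of muscle, rose by 2.10 and 2.77 log2, and TpnC73F, a troponin C, by 1.84. fln, a defining gene of flight muscle, had a difference of -0.05 log2 and was not called.

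Of 23 eye and phototransduction genes measured, 13 were higher and 3 lower, with a median difference of 0.57 log2. Arr1, an arrestin that ends the light response, had 9.99, 11.18 and 10.93 in UAS_control, against 5.25, 5.61, 4.59, 5.73 and 4.53 in WT_old. Arr2 rose by 4.2 log2, Gbeta76C, the G protein subunit of photoreceptors, by 3.87, and retinin, a protein of the corneal lens, by 4.77. The summed signal of the list was 20110 to 28864 in UAS_control and 14600 to 14865 in WT_old, with 14301 to 34446 in WT_new. The sum was thus higher in every UAS_control array than in any WT_old array, and WT_new overlapped both groups.

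All 7 fat body and haemolymph genes measured were higher, with a median difference of 4.07 log2. The yolk protein gene Yp3, made by the female fat body, had 10.72, 13.35 and 12.69 in UAS_control, against 7.19, 5.75, 6.34, 6.92 and 7.17 in WT_old. Yp1 and Yp2 rose by 4.07 and 5.19 log2, fit, a fat body peptide of females, by 5.18, and apolpp, the lipid carrier of the haemolymph, by 0.89. The other groups were also above WT_old, as Yp3 averaged 9.72 in C17, 10.03 in PMdr65 and 11.97 in WT_new. WT_old was thus the lowest of the 5 groups, and Yp2 and Yp3 were no longer called with both wild types as 1 control. The summed list signal was 10631 to 36789 in UAS_control and 2178 to 3287 in WT_old. Juvenile hormone binding protein genes Jhbp13 and Jhbp14 rose by 4.91 and 4.78 log2, again with array 2 highest.

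Cuticle genes were higher in 14 and lower in 4 of 34 measured, with a median of 0.16 log2. Cpr97Eb rose by 3.4, Cpr65Au by 2.78 and Cpr62Bb by 2.65 log2, and Cpr11B fell by 0.62. Of 8 haemocyte genes, 2 were higher (25.0%, near the 27.3% of all genes), 0 lower and 6 not called. The higher ones were Pxn, a peroxidase of the extracellular matrix, and NimC1, a phagocytosis receptor of plasmatocytes. He, Hml, PPO1, PPO2, lz and srp were not called. NimC1 had 7.04, 7.44 and 7.01 in UAS_control, against 5.13, 5.02, 5.17, 5.35 and 5.0 in WT_old, a difference of 2.03 log2 without overlap. The gut list had 4 of 8 genes higher, among them Jon65Aiii, a trypsin-like digestive protease, by 1.20 log2. In whole-tissue RNA, fewer or more cells of a type and less or more RNA per cell cannot be told apart.

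**Figure D2:**
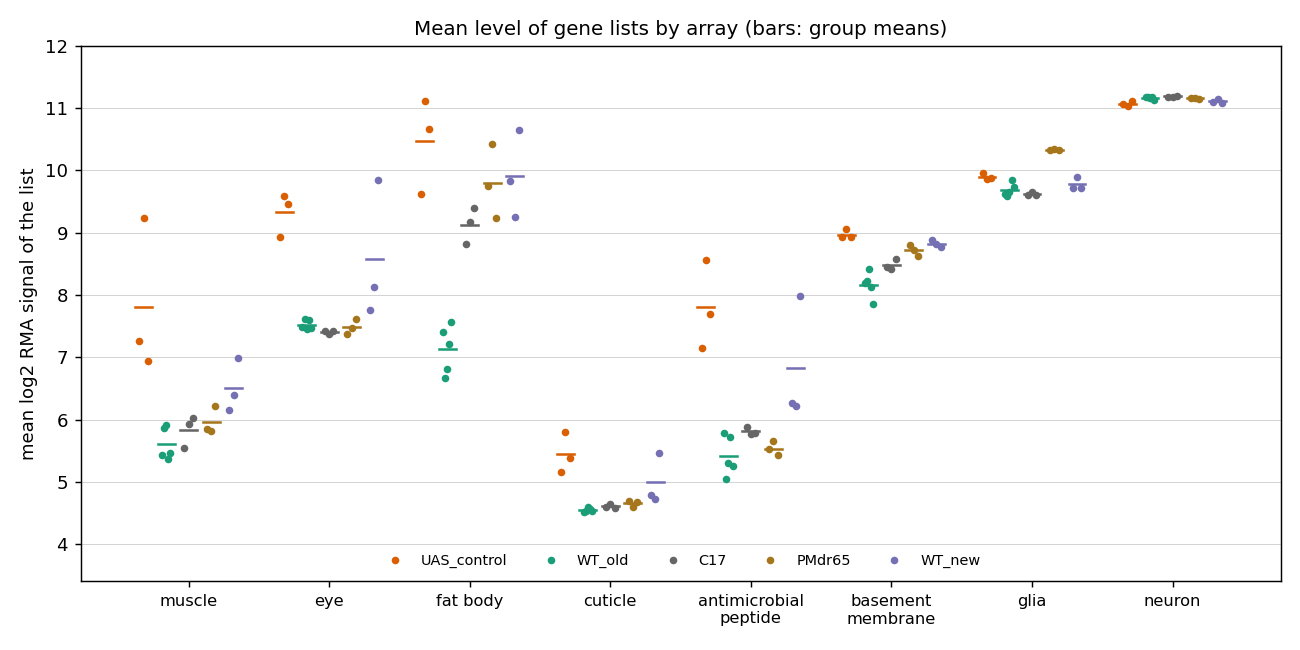
Mean log2 RMA signal of all measured genes of a list in each array (points), with group means (short lines). UAS_control lies above WT_old in muscle, eye, fat body, cuticle, antimicrobial peptide and basement membrane genes, its array 2 is the highest for muscle (9.23 against 5.36 to 5.91 in WT_old), and neuron genes differ little (11.03 to 11.11 in UAS_control against 11.14 to 11.18 in WT_old).

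When the mean level of the muscle, eye, fat body and cuticle lists was added to the fit as a covariate, a choice made after the data were seen, 2666 probe sets differed instead of 7365. Of all 8938 genes, 1157 were higher and 712 lower in that fit, against 2438 and 2442 without the covariate. List counts with the covariate stand against this smaller share of all genes. Genes shared with both mutants numbered 72 higher and 24 lower in that fit, against 194 and 131 without the covariate. Of the 16 shared genes named above, 14 kept their direction and call in UAS_control minus WT_old, the only contrast looked at here gene by gene. Cyp6a17 was at 5.74 and Zip102B at -6.03 log2, and Archease (-0.55) and CG31955 (0.72) were no longer called. Of the 16 named for standing apart from all other groups, 12 kept both in that contrast, with Spn43Aa at 4.98 and CG17290 at 4.62. Akh, CG9297, TotC and sr lost their call in it. CG7214 kept its call at 2.39 log2, against 6.61 without the covariate. This covariate is itself higher in every UAS_control array than in any WT_old array, so the covariate and the groups overlap in what they describe.

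Immune effectors rose together. Of 15 antimicrobial peptide genes, 12 were higher and 0 lower, with a median of 2.72 log2. The Bomanins BomS2, BomS4 and BomS5, short peptides released on Toll signalling, rose by 3.86, 3.04 and 4.24 log2. BomS5 had 7.85, 8.98 and 8.37 in UAS_control, against 4.88, 3.83, 3.80, 4.45 and 3.86 in WT_old. The Drosomycin-like gene Drsl5 had 9.09, 11.38 and 7.98 in UAS_control, against 3.88, 3.84, 4.76, 3.91 and 4.18 in WT_old. Array 2 was the highest of the UAS_control arrays for both genes, as for Mlc2 and Arr1. With the covariate 1 of the 15 genes was called higher and 1 lower.

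Immune signalling genes were higher in 10 and lower in 0 of 23, and with the covariate in 2 and 2. nec, a serpin that restrains the Toll pathway, had 9.36, 9.51 and 9.41 in UAS_control, against 7.46, 7.83, 7.99, 7.92 and 7.38 in WT_old. It rose by 1.72 log2, GNBP2, of the glucan-binding GNBP family, by 1.08, PGRP-LF, a brake on the Imd pathway, by 1.25 and PGRP-LB, an amidase that degrades peptidoglycan, by 0.33. WT_new was near UAS_control for nec, with a mean of 8.99. Of 9 antiviral genes 3 were higher and 3 lower, near the 27.3% each way of all genes. Vago, a secreted antiviral factor, and pst, a gene for resistance to C virus, rose by 2.78 and 1.04 log2, and CHKov1, a gene of sigma virus resistance, fell by 0.41.

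TotC, a Turandot stress protein of the haemolymph, had 7.96, 11 and 9.82 in UAS_control, against 7.96, 2.22, 3.17, 3.35 and 2.87 in WT_old. WT_old array 1 overlapped UAS_control, while the other 4 lay near the floor, and the difference was 5.68 log2 (SE 1.20, adjusted p = 0.00105). Of 12 heat shock genes 6 were lower and 4 higher, and with the covariate 2 and 1. Hsp68, an inducible chaperone, had 9.22, 8.94 and 8.49 in UAS_control, against 9.98, 11.34, 11.54, 11.51 and 11.06 in WT_old. Hsp26 fell by 2.04 and Hsp27 by 1.33 log2, whereas Hsp60A, the chaperonin of mitochondria, rose by 0.45. WT_old was the highest group for these genes, as Hsp68 averaged 9.81 in C17, 9.04 in PMdr65 and 7.98 in WT_new. With both wild types as 1 control, Hsp68 and Hsp26 were no longer called.

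Barrier genes moved in both directions. Of 12 surface glia genes, 5 were higher (41.7%) and 1 lower (8.33%), with a median of 0.34 log2, against 27.3% each way over all genes. Indy, a citrate transporter, had 8.70, 8.70 and 8.76 in UAS_control, against 7.51, 7.86, 7.99, 7.61 and 7.32 in WT_old. CG10226, an ABC transporter of the Mdr family, had 10.01, 9.51 and 9.84 in UAS_control, against 8.14, 8.74, 8.83, 8.95 and 8.72 in WT_old. The trehalose transporter Tret1-1, which carries the sugar of the haemolymph, rose by 0.99 log2 and ltl by 0.49. For Indy the mutants were near UAS_control, at 8.70 in C17 and 8.92 in PMdr65, and WT_new was at 8.22. Over the surface glia list the mutants lay higher, as the median was -0.34 log2 in UAS_control minus C17 and -0.44 in UAS_control minus PMdr65.

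Of 22 septate junction genes, 3 were higher (13.6%), 7 lower (31.8%) and 12 not called, against 27.3% each way over all genes. bou, a Ly6 protein needed for septate junctions, was the highest of the 3, with 8.5, 8.35 and 7.90 in UAS_control, against 6.37, 6.45, 6.46, 6.43 and 6.61 in WT_old. Its difference of 1.78 log2 (SE 0.10, adjusted p = 1.03e-08) was called against all other groups. Chosen after their values were seen, the others higher were nrv1, a subunit of the sodium pump, by 1.17 log2 and the adhesion protein Nrx-IV by 0.25. nrv1 had 6.73, 8.66 and 7.65 in UAS_control, against 6.32 to 6.66 in WT_old. Without UAS_control array 2 its difference was 0.67 and not called, and with the covariate it was -1.18. The claudins sinu and pck fell by 0.53 and 0.54 log2, and the Ly6 protein crim by 0.43. In the G protein module of moody, loco, a regulator of G protein signalling, rose by 0.44 log2, and Galphao and pins fell by 0.15 and 0.23.

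Among glial genes in general, 8 of 18 were higher (44.4%) and 2 lower (11.1%), against 27.3% each way over all genes. alrm, a marker of astrocyte-like glia, rose by 0.74 log2, the transporter Eaat2 by 0.46, and e, a glial enzyme that conjugates dopamine and histamine, by 0.74. The glial factor repo was not among the called genes. Basement membrane genes rose in 9 of 13 (5 with the covariate), with a median of 0.77 log2 and none lower. SPARC, a collagen-binding protein, had 11.89, 11.82 and 11.76 in UAS_control, against 10.47, 10.69, 10.64, 10.67 and 10.13 in WT_old, while LanB1, a laminin chain, rose by 1.37 and trol, the perlecan, by 0.65. The median of this list was 0.03 log2 in UAS_control minus WT_new, so WT_old was apart from both.

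Detoxification genes differed in both directions and more often upwards. Of 60 genes listed as cytochrome P450, 29 were higher and 9 lower, with a median of 0.35 log2, and with the covariate 13 and 8. The 60 include Cyp1 and Cyp40, which are cyclophilins and were not called. Beside Cyp6a17, Cyp6a20 had 9.36, 9.47 and 9.27 in UAS_control, against 7.55, 7.49, 7.58, 7.65 and 7.76 in WT_old. Cyp6a2, whose level differs between insecticide-resistant and susceptible strains, rose by 1.59 log2 and was called against all other groups. Cyp310a1 fell by 1.01. Glutathione S-transferases were higher in 12 and lower in 4 of 26, and with the covariate in 5 and 0. Mgstl, GstE1, GstO3 and GstE13, those with the smallest adjusted p, rose by 1.26, 0.78, 1.20 and 0.47 log2. UDP-glycosyltransferases were higher in 8 and lower in 6 of 20, with Ugt35A1 and Ugt317A1 up by 1.75 and 0.85 and Ugt316A1 down with a difference of -0.68. Hmt-1 and Mdr49, ABC transporters, rose by 0.66 and 1.61, within a list of 12 with 4 higher (33.3%) and 2 lower (16.7%). The organic ion transporters Oatp58Dc, Oatp74D, Orct and Oatp30B rose by 0.67, 0.95, 0.31 and 0.23, 4 of 7 measured.

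**Figure D3:**
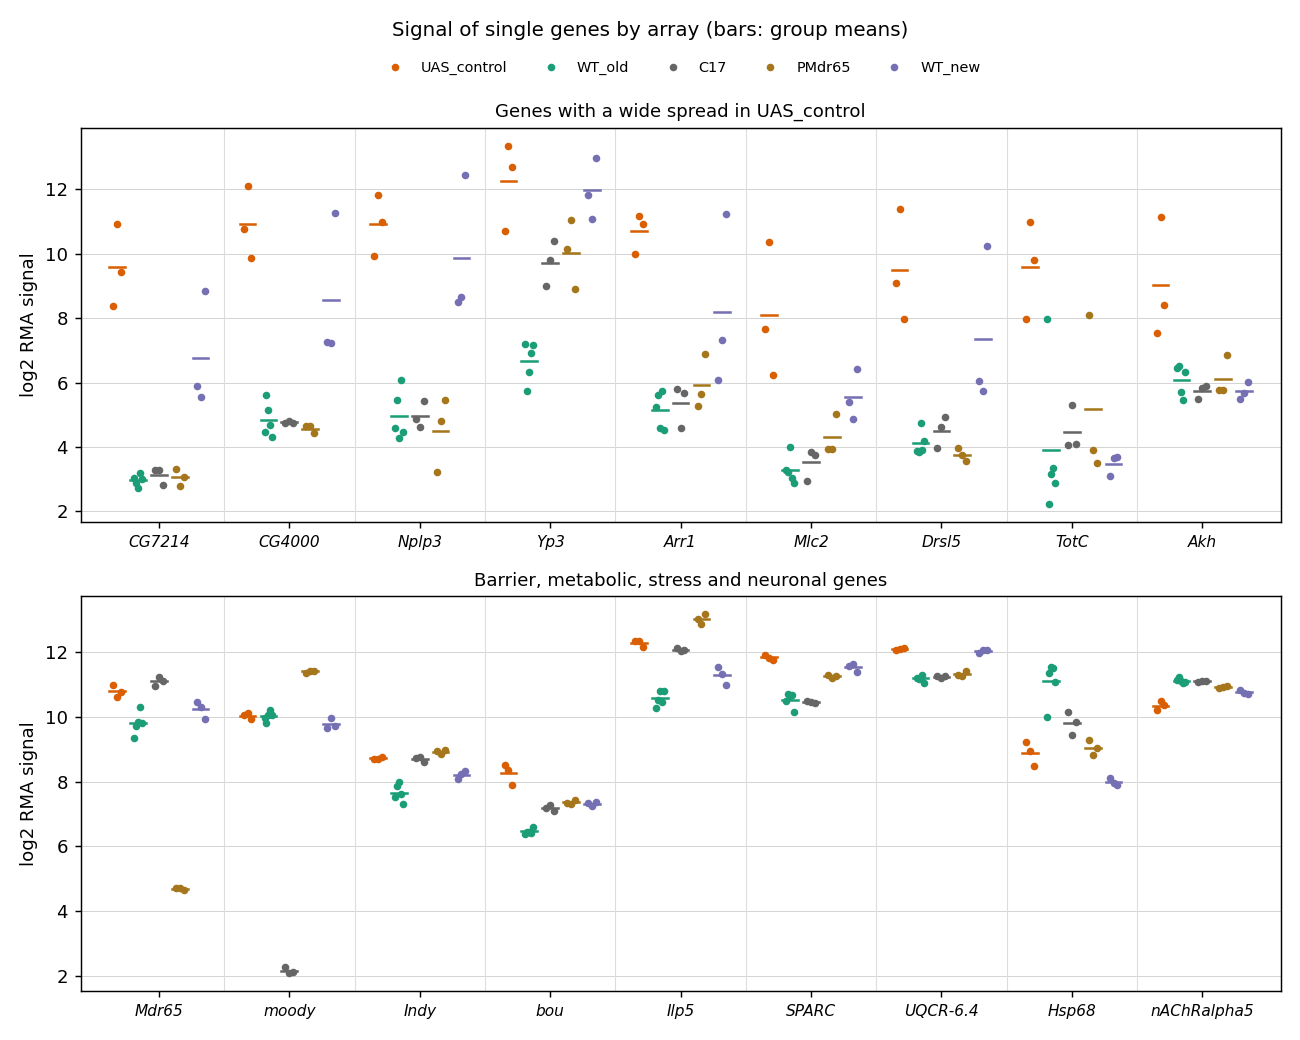
Each point is the log2 RMA signal of 1 array and each short line a group mean. Among the upper genes Mlc2, Drsl5, TotC and Akh spread over several log2 units in UAS_control, and Arr1 over less. TotC has 1 WT_old array at 7.96. The lower genes separate UAS_control from WT_old except moody, where the groups overlap.

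Most measured genes of the respiratory chain and of both kinds of ribosome were higher, with list medians under 0.5 log2. Of 62 oxidative phosphorylation genes, 50 were higher and 4 lower, with a median of 0.43 log2. UQCR-6.4, a subunit of complex III, had 12.05, 12.09 and 12.12 in UAS_control, against 11.20, 11.17, 11.20, 11.28 and 11.03 in WT_old. COX8, of complex IV, rose by 0.86 log2, and ND-B14 and ND-13B, of complex I, by 0.73 and 0.71. The extremes of the list, chosen after their values were seen, were COX7AL2 at 2.52 and COX5BL at -1.04, both named as relatives of complex IV subunits. COX7AL2 had 8.09, 10.01 and 8.07 in UAS_control, against 5.82 to 6.72 in WT_old, and it was not called with the covariate (0.39). Array 2 did not stand out in the list means, as those of the 3 UAS_control arrays were 10.64, 10.71 and 10.66, against 10.19 to 10.34 in WT_old. With the covariate 38 of the 62 were called higher and 2 lower.

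Mitochondrial ribosomal proteins were higher in 50 and lower in 2 of 69, with a median of 0.30 log2 and 28 higher with the covariate, and mRpL12, mRpL49, mRpS14 and mRpL4 rose by 0.74 to 0.85. Cytosolic ribosomal proteins were higher in 24 and lower in 3 of 36 (median 0.25) and with the covariate in 6 and 1, with RpL10Ab at 12.42, 12.61 and 12.46 in UAS_control, against 11.90, 11.93, 11.88, 11.85 and 11.77 in WT_old. The list of 37 proteasome and chaperonin genes divided by complex. Of 29 proteasome genes 21 were higher and 0 lower (median 0.35), whereas of 8 CCT chaperonin genes, whose products fold actin and tubulin, 0 were higher and 6 lower (median -0.32). The 6 ran between -0.24 and -0.54, with CCT5 the lowest. With the covariate 12 of the 37 were higher and 0 lower. Glycolytic and sugar transport genes were higher in 13 and lower in 2 of 22, and with the covariate in 7 and 2. Pgk, Pglym78 and Tpi, enzymes of glycolysis, rose by 0.75, 0.55 and 0.49 log2, and Glut1, a glucose transporter, fell by 0.48. Sod2, the superoxide dismutase of mitochondria, rose by 0.91, within a list of 12 oxidative stress genes with 8 higher and 1 lower, and 1 and 1 with the covariate. In lipid metabolism 9 of 20 were higher and 2 lower, and 1 and 2 with the covariate. Risers included Mtpbeta, of fatty acid oxidation, by 0.57, and bgm, an acyl-CoA synthetase, by 2.63.

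These lists did not set the line apart from WT_new. The median of UAS_control minus WT_new was 0.0 log2 for oxidative phosphorylation, -0.08 for mitochondrial and 0.08 for cytosolic ribosomal proteins and 0.04 for the joint list of proteasome and chaperonin genes. In UAS_control minus C17 those medians were 0.36, 0.18, 0.26 and 0.2 log2, and in UAS_control minus PMdr65 they were 0.35, 0.23, 0.23 and 0.16. These differences share the UAS_control arrays and are given side by side only.

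Neuronal and synaptic genes leaned the other way by small amounts. Of 27 neuron genes, 10 were lower and 3 higher, with a median of -0.11 log2. With the covariate 2 were lower and 2 higher. nAChRalpha5, an acetylcholine receptor subunit, had 10.19, 10.47 and 10.37 in UAS_control, against 11.13, 11.22, 11.09, 11.03 and 11.06 in WT_old. The calcium channel gene cac fell by 0.48 log2 and elav by 0.32, and the GABA receptor gene Rdl rose by 0.44. Of 17 synapse genes 9 were lower (52.9%) and 1 higher (5.88%), against 27.3% each way over all genes, and with the covariate 2 and 0. Rab3, Snap25, brp, cac, cpx, nSyb and unc-13 are in this list and in the neuron list, so these counts are not independent. The active zone protein Rbp had a difference of -0.63 and the neuroligins Nlg4 and Nlg2 of -0.45 and -0.40. Potassium channel genes were lower in 8 and higher in 1 of 19, and with the covariate in 1 and 1, with Elk, slo, Shal and Irk1 between -0.54 and -0.68. Activity-regulated genes were lower in 4 and higher in 1 of 8, and with the covariate in 2 and 0, among them kay and Arc1 with -0.47 and -0.48.

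Of 11 clock genes 6 were lower and 2 higher, and with the covariate 1 and 1. per fell by 0.62 log2, Pdp1 by 0.44, and tim and cry rose by 0.87 and 0.81. tim had 9.71, 9.96 and 9.76 in UAS_control, against 8.93, 8.93, 8.85, 8.96 and 9.04 in WT_old, without overlap, and it averaged 10.84 in C17, 10.77 in PMdr65 and 9.02 in WT_new. The hour of dissection is not given in the sources used here. Of 31 neuropeptide genes 11 were lower (35.5%) and 5 higher (16.1%), against 27.3% each way over all genes, and with the covariate 2 and 1. Ilp5, an insulin-like peptide of brain neurosecretory cells, had 12.33, 12.34 and 12.14 in UAS_control, against 10.27, 10.51, 10.80, 10.46 and 10.80 in WT_old. Its difference was 1.71 log2 (SE 0.13, adjusted p = 1.6e-07), and its means of 12.06 in C17, 13 in PMdr65 and 11.27 in WT_new were also above WT_old. amn and Nplp1 fell by 0.74 and 0.52, and Nplp2 rose by 4.06 with 10.44, 13 and 11.98 in UAS_control. Akh, the adipokinetic hormone of the corpora cardiaca, a gland beside the brain, had 7.54, 11.13 and 8.40 in UAS_control, against 6.45, 6.52, 5.72, 5.45 and 6.33 in WT_old, a difference of 2.93 log2 without overlap.

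**Figure D4:**
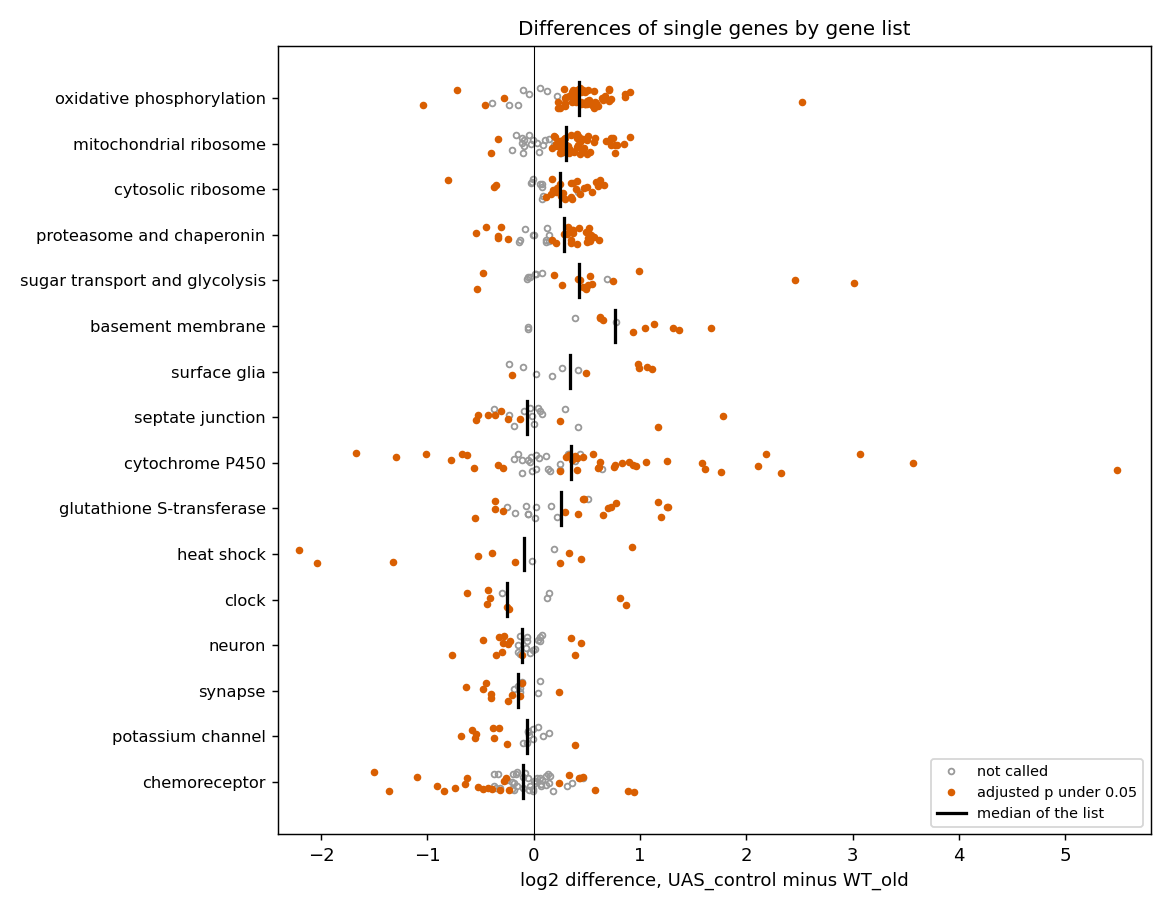
Each point is the log2 difference UAS_control minus WT_old of 1 gene, filled where its adjusted p was under 0.05, and each black line the median of its list. Most oxidative phosphorylation and ribosomal genes lie between 0 and 1, the list of proteasome and chaperonin genes falls on both sides of 0, whereas neuron, synapse and potassium channel genes lie around or below 0 and P450 genes spread up to 5.49.

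Direction went with the length of genes. Of the 8938 genes, 8889 (99.5%) had a genomic length in RefSeq, and they were divided into 5 classes of near equal size. In the shortest class (147 to 1307 bp) 34.4% of genes were higher and 22.5% lower in UAS_control, and in the longest (8741 to 396036 bp) 17.3% were higher and 40.5% lower. The median difference was 0.04 log2 in the shortest and -0.12 in the longest class. Oxidative phosphorylation genes had a median length of 1115 bp and mitochondrial ribosomal genes of 909 bp, against 31757 bp for synapse, 17326 bp for potassium channel and 2717 bp for all genes. The difference between 3′ and 5′ control probe sets was also larger in UAS_control, and the part of gene length and RNA integrity in the results of these lists was not tested.

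**Figure D5:**
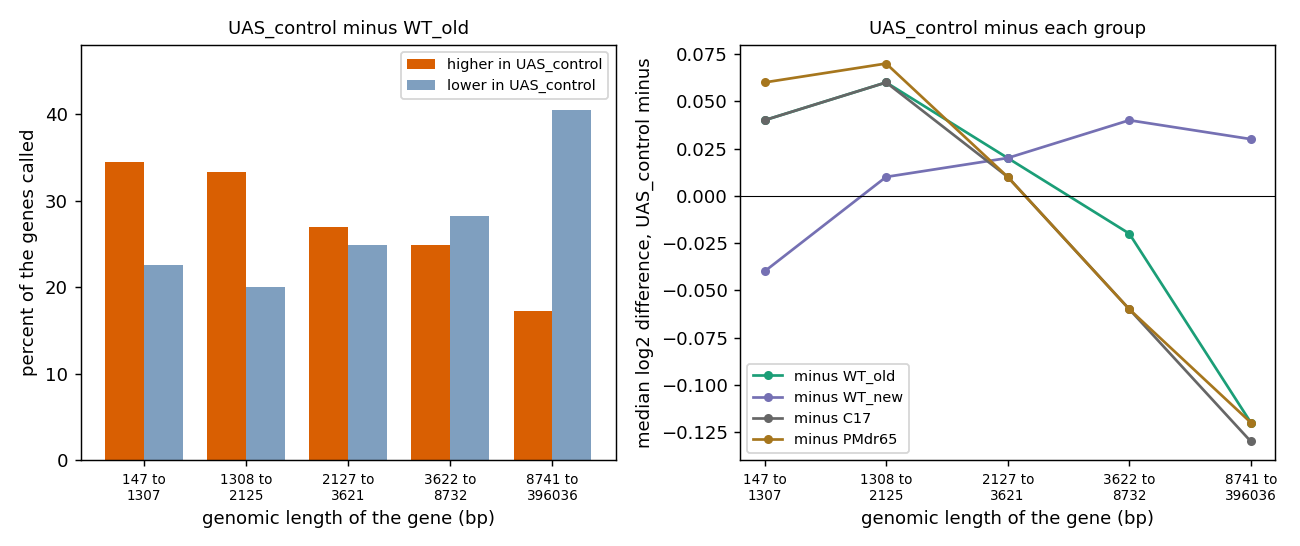
Left, percent of genes called higher or lower in UAS_control than in WT_old in 5 classes of genomic length (bp). Right, the median log2 difference of UAS_control minus each other group: it falls to -0.12 against WT_old, -0.13 against C17 and -0.12 against PMdr65 in the longest class and is 0.03 against WT_new.

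Chemosensory, pigment and sex-related genes complete the account. Odorant binding protein genes were higher in 12 and lower in 4 of 23, and with the covariate in 1 and 2, with Obp19d at 10.22, 12.19 and 8.87 in UAS_control, against 5.87, 6.51, 5.71, 5.99 and 5.77 in WT_old. Obp57a and Obp8a rose by 3.48 and 1.11 log2, and Obp51a fell by 0.93. Receptors of taste and smell were lower in 16 (25.4%) and higher in 8 (12.7%) of 63, against 27.3% each way over all genes, and Or22a, Or13a and Or22b fell by 1.5, 1.36 and 1.1, while Gr28b rose by 0.94.

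Of 15 eye pigment genes 6 were higher and 4 lower. ry, the xanthine dehydrogenase of the pteridine pathway, rose by 1.13 log2 with 7.89, 7.91 and 7.66 in UAS_control, against 6.56 to 6.87 in WT_old. se, an enzyme of the red eye pigments, had 6.15, 7.96 and 7.80 in UAS_control, against 4.96 to 5.35 in WT_old. or, car, p and pr rose by 0.23 to 0.37, rb, g, lt and cl had differences of -0.18 to -0.48, and Pu, bw, st, dor and kar were not called. Of 12 genes listed as sex-biased 8 were lower and 0 higher, and with the covariate 1 and 0. The 12 include Acp65Aa, a cuticle protein gene, which was not called. Sxl, the sex-determining splicing factor, fell by 0.47 and tra by 0.41, fru, the courtship factor, by 0.43 and Acp53C14c, a male accessory gland protein, by 1.02. The share of each sex on an array is not given, and its part was not tested.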

How the data were processed

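RNA of adult brains was measured on Affymetrix Drosophila arrays, amplified with NuGEN kits, per the labels' protocols. The deposited values are log2 signals that the authors computed by RMA, per the file headers. The submitters' processing notes list affy, RMA and limma. No version of these tools was stated. The series matrix held 13290 probe sets, a subset of the 18769 of the unfiltered table, and 10243 of them had 1 gene symbol in the platform annotation, which gave 8938 genes. Where several probe sets carried a gene, the brightest stood for it. A group-means model over the 17 arrays used limma 3.58.1 under R 4.3.3 (12 residual and 2.93 prior degrees of freedom), with Benjamini-Hochberg adjustment over all probe sets of a contrast and a threshold of 0.05. Mdr65 and moody were also compared by exact permutation of arrays. The number of arrays limits the precision.

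Named were Mdr65 and moody, the 15 called genes without overlap that differed most upwards and the 15 that did so downwards, and 8 genes each way ranked by the least of their differences against all 4 other groups. The rule added 8 each way that the mutants against WT_new shared, ranked likewise, up to 4 called genes of each list by adjusted p, the eye pigment genes, and cell markers. fln, repo and elav were named as such markers. The groups compared, assigned by labels, and the 43 gene lists were chosen with earlier results of these data known. Alternatives were the unfiltered table, quantile normalization, median centring, another prior, array weights, only these groups in the fit, a replicate block, both wild types as 1 control, the dimmest 40% left out, a limit of 2-fold and each array left out. A covariate, the mean level of the muscle, eye, fat body and cuticle lists, was added after seeing the data. Replicate numbers did not pair the arrays, since same-numbered arrays correlated at -0.129 to -0.051. The fit was tested on simulated data for 13290 probe sets. It called 46 of 50 raised by 1 log2, 47 of 50 set at -1, 34 of 50 raised by 0.5 and 8 of 13090 left unchanged. The simulated noise was independent between probe sets, with 1 spread per probe set for all groups. It thus does not cover the wider spread of UAS_control or an array that stands apart. RefSeq supplied gene lengths and chromosome arms. Sequences were not used here.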

Additional observations from a re-analysis of the deposited data

Results flagged for a closer look

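In WT_old, 7 of the genes named in the text had 1 array whose gap to the others exceeded 0.71 of the range of the 5 arrays, the Dixon limit, which chance passes in about 1 in 20 groups. TotC was 7.96 in array 1, against 2.22 to 3.35 in the others, and without that array its difference was 6.69 log2. CG31955 was 6.08 in array 1, against 4.43 to 4.74, with a difference of 2.42 log2 without it. elav was 11.99 in array 1, against 11.89 to 11.91, CG15923 was 7.62 in array 1, against 7.17 to 7.30, and CG10226 was 8.14 in array 1, against 8.72 to 8.95. In array 5, CG16879 was 9.24, against 9.57 to 9.68, and ND-13B was 10.17, against 10.29 to 10.33. All 7 kept their call without the array.

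Of the 5479 probe sets that are in the unfiltered table and not in the series matrix, 28 were at least 2-fold higher in UAS_control with no overlap of arrays, and 1 was lower. The median signal of the 5479 was 4.04 log2, against 7.91 for probe sets of the series matrix.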

How the results depend on the processing

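With both wild types as 1 control, 3575 probe sets differed (1607 higher, 1968 lower) and 1301 genes were higher and 1048 lower. At 2-fold or more, 808 probe sets remained over the limit (607 higher, 201 lower), with 504 genes higher and 91 lower. With the covariate, 2666 probe sets differed (1365 higher, 1301 lower), 1157 genes were higher and 712 lower. The covariate left 148 genes higher and 75 lower against all 4 groups, 72 higher and 24 lower in common with the mutants, and 168 list members higher and 54 lower; the cause was not tested. It also changed the sign of the difference in 10 named genes: nrv1 (-1.18), Akh (-0.03), Drsl5 (-0.41), Oatp30B (-0.01), Pu (-0.93), Vago (-1.03), lt (0.00), pr (-0.27), se (-1.49) and yellow-e (-0.19 log2). A changed sign need not be a call in the opposite direction, and for lt, Oatp30B and Akh the difference was lost rather than reversed. The unfiltered table, quantile normalization, median centring, the other prior, array weights, the 2 groups alone and the dimmest probe sets left out kept the counts of probe sets and genes within 1.5 times. The replicate block gave 6319 probe sets (2463 higher, 3856 lower).

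With each array left out, 6498 to 7261 probe sets differed, and without UAS_control array 2 the genes higher against all 4 groups numbered 159, where the other arrays gave 212 to 351. Mdr65 kept a difference of 0.87 to 1.11 log2, and its exact permutation p was 0.0571 without WT_old array 1, 2, 3 or 5, 0.0286 without array 4 and 0.0476 without any 1 UAS_control array. Of the 193 genes named, 45 lost their call with both wild types as 1 control. With the covariate 50 lost it without a change of sign, and the 10 genes whose sign changed are counted apart from these. Leaving out single arrays ended the calls of Oatp30B, Orct, car, cl, lt, nrv1, p, pins and pr in at least 1 case, and called Pu and kar without UAS_control array 1. With 3 arrays in UAS_control, 1 of which stood apart, small differences are the least certain, and signals near the floor limit the folds.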

Other observations

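Of 13 ecdysone pathway genes, 3 were higher (23.1%) and 4 lower (30.8%) in UAS_control, near the 27.3% each way of all genes. EcR, the ecdysone receptor, had a mean of 8.97 ± 0.05 in UAS_control (SD, n = 3) and 9.59 ± 0.04 in WT_old (SD, n = 5), and the nuclear receptors Hr39 and Hr78 had differences of -0.68 and 0.31 log2. Of 9 small RNA genes, 5 were lower and 1 higher, and 0 and 1 with the covariate, with Dcr-2, the dicer of the RNA interference pathway, at -0.39, Hen1, a small RNA methyltransferase, at -0.35 and loqs, a partner of dicers, at 0.23. Amino acid transporters were higher in 6 and lower in 1 of 11, and with the covariate in 1 and 0, and slif, a cationic amino acid transporter, rose by 1.67. Body pigment genes were higher in 6 (60.0%) and lower in 2 (20.0%) of 10, and with the covariate in 3 and 0. Among them yellow-e was up by 1.8 and yellow-k at -1.09. Of 9 genes known to vary between strains in resistance to insecticides or viruses, 5 were higher (55.6%) and 2 lower (22.2%). With the covariate 1 was higher and 1 lower. CHKov2, a neighbour of CHKov1, was among the 5 higher without it, at 0.60.

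Probe sets without a gene symbol in the platform annotation differed in another proportion. Of 2737 such probe sets, 11.4% were higher and 42.2% lower in UAS_control, with a median difference of -0.18 log2. Among the 10243 probe sets with 1 symbol, 25.0% were higher and 30.8% lower, with a median of -0.04. Their mean signals were 7.13 and 8.01 log2.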
